A study of Homo sapiens with 12 samples.

Results

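SKMel28 cells resistant to vemurafenib were compared with sensitive SKMel28 cells by RNA sequencing. The members are the libraries whose labels name this line, 3 resistant and 3 sensitive, of 12 in the series. The remaining 6 are resistant and sensitive A375 cells. Values are read counts per gene, and 15506 of the 26499 listed genes held enough reads to be tested. SKMel28 is an established human melanoma line that carries mutant BRAF, the kinase that vemurafenib inhibits. The series was set up around the IGF1 pathway and resistance to drugs against BRAF and MEK. Both groups grew in DMEM with 10% fetal bovine serum. Vemurafenib at 1 µmol/L was present in the culture of the resistant cells, whereas the labels mention none for sensitive cells. Acquired resistance and exposure to the drug therefore cannot be told apart. The labels give no genotype of the resistant cells and do not say whether they are 1 clone or a pool, nor whether replicate libraries stem from different cultures. P-values therefore measure only the spread between these samples.

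In most melanomas, signalling runs from receptors through RAS, RAF, MEK and ERK. ERK activity switches on AP-1 and ETS factors, cyclin D1 and the feedback phosphatases and Sprouty proteins that damp the pathway again. Melanoma cells also move between a pigmented state driven by MITF and SOX10, a neural crest-like state marked by NGFR, and less differentiated states rich in cytokines, proteases and matrix proteins, and drug-tolerant cells are known from several of these states.

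Each SKMel28 library held between 31242802 and 37148091 reads on genes, so 1 CPM (counts scaled to library size, with TMM factors) stood for at least 29.8 reads. Replicates correlated at 0.994 to 0.997 in log2 CPM, and each pair differed by more than counting noise (chi-square over degrees of freedom 3.56 to 7.45). Mitochondrially encoded genes took 6.82% to 7.13% of gene reads in resistant libraries and 4.41% to 4.67% in sensitive ones. Reads aligned to more than 1 place were 2.09% to 2.44% and 4.004% to 4.47%. All 10 melanocyte markers were tested in both groups, and their summed level was 11121 to 11279 CPM in resistant and 7451 to 7902 CPM in sensitive libraries. Leukocyte markers summed to 0.246 to 0.284 CPM and 1.27 to 2.76 CPM, with no read for CD3E, CD3D or CD2. Keratinocyte markers summed to 31.5 to 37.0 and 80.4 to 83.9 CPM, without reads of KRT5, KRT1 or KRTDAP. Fibroblast markers summed to 18.6 to 22.2 and 29.8 to 30.5 CPM, and endothelial markers to 2.24 to 2.98 and 6.42 to 7.54 CPM. In bulk samples, fewer cells of a type and less RNA per cell cannot be told apart.

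Genes that differed were the majority. At an edgeR quasi-likelihood adjusted p below 0.05 (Benjamini-Hochberg over all genes tested, two-sided), 10854 of 15506 genes, or 70.0%, were called. Of these 5301 (34.2%) were higher in resistant cells and 5553 (35.8%) lower, and the libraries of the groups did not overlap for 71.1% of genes. Calls of at least 2-fold numbered 1343 higher (8.66%) and 1883 lower (12.1%). The median log2 fold change over all genes was -0.01, and fold changes below are fitted log2 values, resistant minus sensitive, with their standard errors (SE). These shares are the background against which each gene group is to be read. Genes were filtered over all 4 groups of the series, so some tested genes had no read in SKMel28, HLA-DOA and XCL1 among them. Such genes count as tested and not called, and enter the medians with a fitted change of 0. Where a gene is said to have risen or fallen it was called, and its 3 resistant libraries lay on the same side of all 3 sensitive ones unless an overlap is stated.

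**Figure D1:**
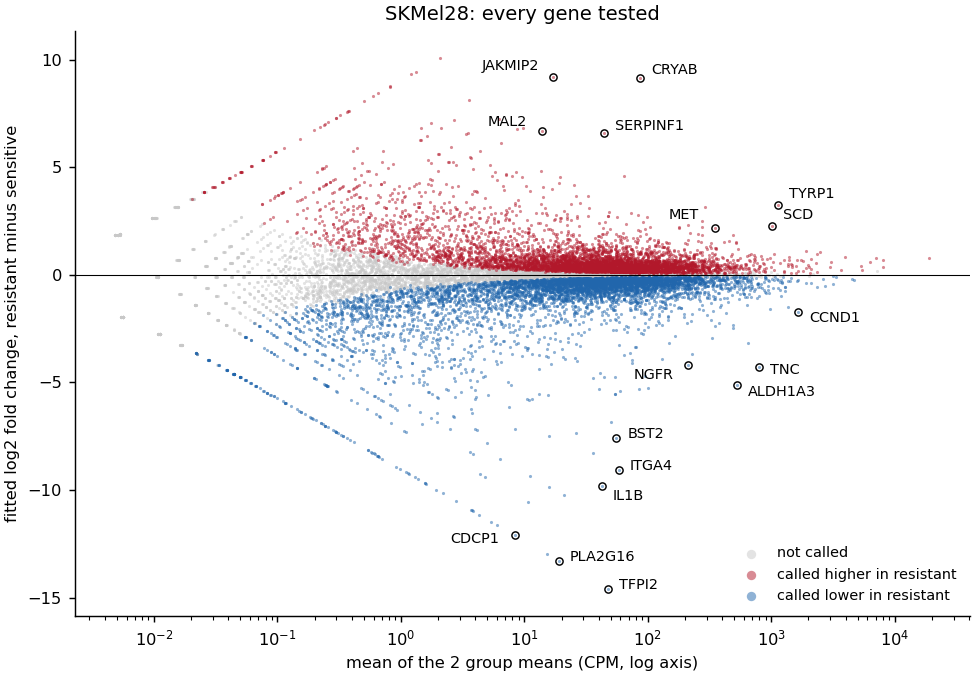
Fitted log2 fold change (resistant minus sensitive) of every tested gene against the mean of both group means in CPM on a log axis, with called genes in red (higher) and blue (lower) and named genes circled. Genes without reads in 1 group form the straight outer lines, where the fitted value is no bound. TFPI2 lies lowest, JAKMIP2 and CRYAB lie highest among genes that averaged 10 CPM or more in resistant cells, and most called genes lie close to 0.

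Most feedback inhibitors and transcription factors downstream of ERK were lower in resistant cells. Of 18 feedback inhibitors of MAPK signalling, 15 fell and 2 rose (median -0.63), and of 20 AP-1 and ETS factors 15 fell and 2 rose (median -0.49). CCND1, which encodes the G1 cyclin D1 (chr11:69641087-69654474, GRCh38), read 2473, 2528 and 2557 CPM in the sensitive libraries and 747, 771 and 788 CPM in the resistant ones (log2 fold change -1.71 ± 0.032 SE, edgeR adjusted p = 1.21e-37). The resistant libraries were all low, with no overlap, and no other gene lost as much CPM among those changed at least 2-fold. DUSP4, a phosphatase of ERK, read 652, 654 and 679 CPM in the sensitive libraries and 191, 191 and 194 CPM in the resistant ones (-1.78 ± 0.034 SE). DUSP10, a phosphatase of p38 and JNK, fell from 87.5 to 21.1 CPM (-2.05 ± 0.064 SE). The Sprouty genes SPRY1 (-1.43), SPRY2 (-1.27) and SPRY4 (-1.20) fell together. The feedback inhibitors that rose were DUSP8, at 2.79 ± 0.700 CPM in sensitive and 4.68 ± 0.702 CPM in resistant libraries (SD, n = 3; log2 fold change 0.75 ± 0.22 SE), and DUSP2, which had no read in sensitive libraries and 0, 0.0946 and 0.117 CPM in the resistant ones, which overlapped at 0. The call of DUSP2 was lost without resistant library 3. Both were named after their values were seen.

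Among the transcription factors, ETV4, an ETS factor downstream of ERK, read 112, 115 and 124 CPM in the sensitive libraries and 19.9, 21.8 and 24.1 CPM in the resistant ones (-2.41 ± 0.052 SE). Its relative ETV5 read 235, 241 and 244 CPM and 238, 233 and 232 CPM, which overlapped and was not called (-0.03 ± 0.036 SE, edgeR adjusted p = 0.408). The libraries thus separated fully for ETV4 and not for ETV5. FOSL1, which encodes the AP-1 subunit FRA1, fell from 146 to 41.4 CPM (-1.82 ± 0.043 SE). FOSB, another AP-1 subunit, read 8.004, 7.83 and 8.80 CPM in the sensitive libraries and 0.921, 0.820 and 0.729 CPM in the resistant ones (-3.31 ± 0.17 SE), and MAFF, a small MAF factor, 261, 268 and 273 CPM in the sensitive libraries and 28.04, 31.6 and 29.03 CPM in the resistant ones (-3.18 ± 0.053 SE). ETS1 rose from 163 to 300.1 CPM (0.88 ± 0.037 SE) and JUND from 62.1 to 81.8 CPM (0.40 ± 0.072 SE), the only members of the list called higher.

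The receptors and kinases upstream did not move as a group: of 24 tested, 9 were higher and 9 lower (median -0.04). MET, the receptor for hepatocyte growth factor (chr7:116672390-116798386), read 123, 129 and 128 CPM in the sensitive libraries and 614, 562 and 547 CPM in the resistant ones (log2 fold change 2.18 ± 0.039 SE, edgeR adjusted p = 1.51e-38). All resistant libraries were high, and MET was among the 10 genes that gained most CPM. The scaffold gene KSR1 rose from 2.91 to 6.46 CPM (1.15 ± 0.18 SE). ARAF fell from 56.97 to 26.3 CPM (-1.12 ± 0.053 SE), and MAP2K1, which encodes MEK1, from 64.5 to 46.4 CPM (-0.48 ± 0.045 SE). EREG, a ligand of the EGF receptor, held 1928 reads over the sensitive libraries and 1 over the resistant ones, a level 2103-fold lower (95% counting interval 377 to 83054). Counting intervals and floors here take in counting error alone, because PCR copies were not marked by molecular identifiers. EGFR itself read 2.40, 2.69 and 2.51 CPM in the sensitive libraries and 1.78, 1.86 and 1.60 CPM in the resistant ones (-0.54 ± 0.15 SE). BRAF read 12.8, 14.1 and 13.4 CPM and 13.02, 11.6 and 9.59 CPM, which overlapped, and its call (-0.24 ± 0.10 SE, edgeR adjusted p = 0.0365) was lost in 6 of 13 alternative analyses, among them DESeq2 (-0.23) and the omission of resistant library 3 (-0.12).

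**Figure D2:**
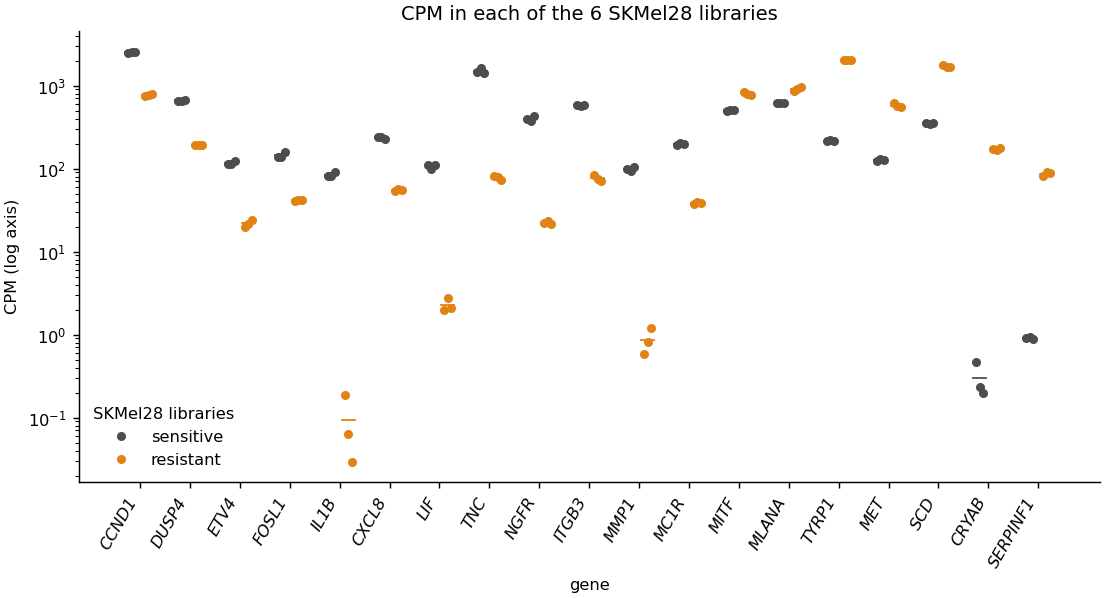
CPM (log axis) of named genes in each of the 6 SKMel28 libraries, sensitive in grey and resistant in orange, with a bar at each group mean. Within a group the points lie close together for most genes, and the groups do not overlap for any of these genes. Points spread more where reads are few, as for IL1B in resistant and CRYAB in sensitive libraries. CCND1, DUSP4, ETV4, FOSL1 and the cytokine genes are lower in the resistant libraries, and TYRP1, MET, SCD, CRYAB and SERPINF1 higher.

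The IGF axis, the pathway the series asks about, held 5 higher and 10 lower genes of 23 (median -0.20). IGF1R, the IGF1 receptor, read 153, 169 and 161 CPM in the sensitive libraries and 281, 275 and 266 CPM in the resistant ones (0.77 ± 0.039 SE). The docking protein gene IRS1 read 36.95, 38.8 and 42.9 CPM in the sensitive libraries and 11.03, 10.97 and 11.7 CPM in the resistant ones (-1.82 ± 0.062 SE), so receptor and adaptor separated in opposite directions. GRB10, an adaptor that restrains insulin and IGF1 receptors, fell from 109 to 35.2 CPM (-1.63 ± 0.058 SE). Of the binding proteins, IGFBP3 rose from 26.7 to 48.3 CPM (0.86 ± 0.055 SE), and IGFBP7 fell from 213 to 111 CPM (-0.93 ± 0.043 SE). The others that rose were the RNA-binding protein gene IGF2BP1 (1.54 ± 0.047 SE), IGFBP5 (2.08 ± 0.273 to 4.14 ± 0.355 CPM, SD, n = 3, named after its values were seen) and IGF2R, which overlapped (0.26 ± 0.078 SE). IGF1 was at 0.331 ± 0.0280 CPM in sensitive and 0.385 ± 0.0411 CPM in resistant libraries (SD, n = 3) and was not called (log2 fold change 0.21 ± 0.53 SE, edgeR adjusted p = 0.737). Of 25 PI3K, AKT and mTOR genes 10 were higher and 8 lower (median 0.07). PIK3CB, a catalytic subunit of PI3K, rose from 89.8 to 158 CPM (0.81 ± 0.049 SE), and DDIT4, an inhibitor of mTORC1, fell from 184 to 76.4 CPM (-1.27 ± 0.044 SE).

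Genes of melanin synthesis and the melanosome were higher in resistant cells for 20 of 29 tested and lower for 7 (median 0.53). TYRP1, an enzyme of eumelanin synthesis, read 218, 219 and 217 CPM in the sensitive libraries and 2039.6, 2030.2 and 2042 CPM in the resistant ones (log2 fold change 3.23 ± 0.038 SE, edgeR adjusted p = 6.06e-45). The 3 libraries of each group were nearly equal, and no gene changed at least 2-fold gained more CPM. SLC24A5, an ion exchanger of the melanosome, rose from 71.3 to 191 CPM (1.42 ± 0.047 SE), and PMEL, the fibril protein of the melanosome, from 4545 to 6114 CPM (0.43 ± 0.035 SE). TYR, which encodes tyrosinase, read 156, 138 and 151 CPM in the sensitive libraries and 179, 170.3 and 173 CPM in the resistant ones (0.23 ± 0.045 SE). The transcription factor genes PAX3 (1.15) and MITF (0.67) rose as well. Other members went the other way. MC1R, the melanocortin receptor that raises cyclic AMP in melanocytes, read 190.2, 202 and 196 CPM in the sensitive libraries and 36.98, 39.3 and 38.9 CPM in the resistant ones (-2.35 ± 0.050 SE), with every resistant library far below the sensitive ones. LEF1, a factor of WNT signalling that works with MITF, fell from 163 to 54.6 CPM (-1.58 ± 0.048 SE), IRF4, a regulator of tyrosinase, from 100.2 to 70.1 CPM (-0.52 ± 0.054 SE), and DCT, the enzyme between tyrosinase and TYRP1, from 266 to 218 CPM (-0.29 ± 0.041 SE).

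The promoters of TYRP1 and SLC24A5 are shown because both genes rose and their promoters hold TCATGTG on either strand. These are letters of the M-box, an element through which MITF is known to act. Bases beyond these letters were not searched, and whether MITF acts on these promoters was not tested. The window runs from 250 bases before to 50 after the transcript start (RefSeq, GRCh38.p14), read 5′ to 3′ on the gene's strand, and capitals mark the match. The letters searched were TCATGTG on both strands, which contain an E-box core. TYRP1 lies at chr9:12693135-12693434 on the plus strand, with the match starting at -145 from the transcript start. SLC24A5 lies at chr15:48120740-48121039 on the plus strand, with the match at -15 on the opposite strand.
TYRP1: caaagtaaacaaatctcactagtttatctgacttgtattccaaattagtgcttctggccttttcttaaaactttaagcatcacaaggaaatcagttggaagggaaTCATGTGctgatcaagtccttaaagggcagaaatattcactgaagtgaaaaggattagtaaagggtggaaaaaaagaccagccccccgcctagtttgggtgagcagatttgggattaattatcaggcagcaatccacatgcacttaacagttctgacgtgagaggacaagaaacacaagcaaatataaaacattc
SLC24A5: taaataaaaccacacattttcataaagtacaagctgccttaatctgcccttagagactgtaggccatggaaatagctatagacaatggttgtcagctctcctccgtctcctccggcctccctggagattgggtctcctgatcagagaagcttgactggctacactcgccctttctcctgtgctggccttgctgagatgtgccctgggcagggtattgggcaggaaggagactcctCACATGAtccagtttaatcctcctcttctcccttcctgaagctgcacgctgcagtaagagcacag

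The same letters occurred in 6 of 24 promoters of the melanosome list that were in the table (TYR, TYRP1, SLC24A5, GPR143, GPNMB and TSPAN10). They occurred in 1.89% of the 11303 promoters of tested genes and in 2.99% of all 27305 promoters. Of genes called at least 2-fold higher 2.73% had the match, and of those at least 2-fold lower 1.96%. GPR143, a melanosome receptor whose promoter has the match, fell from 147 to 109.8 CPM (-0.42 ± 0.054 SE). The letters were also in 2 of 15 promoters of the MAPK feedback inhibitors, those of SPRY1 (-1.43) and SPRY2 (-1.27), and in that of MMP8 (-3.72). All of these fell, so carriers of the letters did not all move the same way. A match describes letters in a window, and binding was not measured.

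Neural crest and stem-like genes split, with 9 of 23 higher and 10 lower (median -0.05). NGFR, the low-affinity nerve growth factor receptor (chr17:49495293-49515017), read 396, 375.1 and 431 CPM in the sensitive libraries and 22.1, 23.5 and 21.3 CPM in the resistant ones (log2 fold change -4.17 ± 0.050 SE, edgeR adjusted p = 3.92e-44). RXRG, a retinoid receptor that marks neural crest-like cells, fell from 47.2 to 5.12 CPM (-3.20 ± 0.11 SE), TWIST1 from 20.5 to 4.77 CPM (-2.11 ± 0.10 SE), and S100B from 465 to 185 CPM (-1.33 ± 0.037 SE). CDH19, a cadherin of Schwann cell precursors, read 13.04, 12.9 and 11.3 CPM in the sensitive libraries and 82.96, 82.9 and 79.99 CPM in the resistant ones (2.72 ± 0.070 SE), entirely the reverse. NES, which encodes the intermediate filament nestin, rose from 4.06 to 21.7 CPM (2.42 ± 0.084 SE), and the factor gene FOXD3 from 15.04 to 28.2 CPM (0.91 ± 0.090 SE). Schwann cell markers as a whole summed to 1267 to 1291 CPM in resistant and 962 to 1019 CPM in sensitive libraries, with 3 of 6 tested higher, none lower (CDH19 and MBP among those higher) and no read for SCN7A. Whether they bear on this split was not tested.

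Invasive and mesenchymal genes also split, with 11 of 29 higher and 14 lower (median 0.00). TNC, the matrix protein tenascin-C (chr9:115019578-115118257), read 1475, 1629 and 1417 CPM in the sensitive libraries and 81.1, 78.8 and 73.3 CPM in the resistant ones (-4.28 ± 0.046 SE). LOX, which cross-links collagen, fell from 14.1 to 2.20 CPM (-2.67 ± 0.17 SE), and NT5E, the CD73 enzyme that makes adenosine, from 355 to 100.5 CPM (-1.82 ± 0.036 SE). CYR61, a matrix protein gene known as a target of YAP, read 26.5, 27.3 and 25.6 CPM in the sensitive libraries and 159.7, 176 and 172 CPM in the resistant ones (2.67 ± 0.045 SE). SPARC, a collagen-binding matrix protein, rose from 1225 to 2623 CPM (1.10 ± 0.033 SE). The TWIST genes exchanged places: while TWIST1 fell, TWIST2 had 2 reads over the sensitive libraries and 703 over the resistant ones, 322-fold higher (95% counting interval 89.1 to 2659). AXL read 13.8, 12.6 and 14.7 CPM and 12.3, 12.6 and 10.2 CPM, which overlapped, and its call (-0.23 ± 0.068 SE, edgeR adjusted p = 0.00258) was lost without resistant library 3 (-0.13). ALDH1A3, an enzyme of retinoic acid synthesis, read 1024, 1016 and 1027 CPM in the sensitive libraries and 27.7, 32.7 and 28.1 CPM in the resistant ones (-5.12 ± 0.044 SE), and no resistant library reached a level near the sensitive ones.

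Genes of inflammatory signalling, from secreted factors to receptors and regulators inside the cell, were more often lower than higher in resistant cells. Of 15 interleukin-1 family genes 8 fell and 2 rose (median -0.74), of 13 chemokines 7 and 2 (median -0.54), of 15 genes of the IL6 family and STAT3 feedback 9 and 3 (median -0.19), and of 21 NF-kB subunits and targets 17 and 2 (median -0.58). IL1B, the secreted interleukin-1 beta (chr2:112829751-112836903), read 82.1, 81.8 and 90.4 CPM in the sensitive libraries and 0.184, 0.0630 and 0.0292 CPM in the resistant ones (log2 fold change -9.80 ± 0.14 SE, edgeR adjusted p = 9.65e-42), with 9 reads left over 3 libraries. IL1RL1, the IL-33 receptor, had 505 reads over the sensitive libraries and none over the resistant ones, at least 183-fold lower with 3 reads over the group as the floor. The members that rose were the adaptor gene MYD88 (0.22 ± 0.059 SE) and SIGIRR, an inhibitory receptor of the family, named after its values were seen, at 0.277 ± 0.196 CPM and 1.87 ± 0.404 CPM (SD, n = 3; log2 fold change 2.74 ± 0.30 SE).

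Among chemokines, CXCL8, which draws neutrophils, read 242, 238 and 227 CPM in the sensitive libraries and 53.8, 56.1 and 54.5 CPM in the resistant ones (-2.10 ± 0.047 SE). CCL20 fell from 6.81 to 0.453 CPM (-3.89 ± 0.29 SE), CCL5 from 3.16 to 0.236 CPM (-3.73 ± 0.44 SE) and CX3CL1 from 13.3 to 2.11 CPM (-2.66 ± 0.16 SE). CCL28 rose from 17.4 to 31.4 CPM (0.85 ± 0.076 SE). CXCL12, the ligand of CXCR4, had 3 reads over the sensitive libraries and 4.94, 5.26 and 5.98 CPM in the resistant ones, 163-fold higher (95% counting interval 55.7 to 789). CCL2 read 2.10, 1.68 and 1.01 CPM and 0.676, 1.29 and 1.31 CPM, which overlapped, and was not called (edgeR adjusted p = 0.0677).

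LIF, the leukaemia inhibitory factor, read 109, 98.1 and 112 CPM in the sensitive libraries and 1.996, 2.77 and 2.10 CPM in the resistant ones (log2 fold change -5.54 ± 0.078 SE, edgeR adjusted p = 8.25e-42), without overlap. IL11, a relative of LIF, fell from 7.65 to 0.895 CPM (-3.08 ± 0.18 SE), and so did SOCS3, the feedback inhibitor of STAT3 (-1.52 ± 0.10 SE), and OSMR, the oncostatin M receptor (-1.25 ± 0.051 SE). The LIF receptor gene LIFR rose from 2.73 to 5.83 CPM (1.09 ± 0.15 SE), as did SOCS2 (0.97 ± 0.11 SE) and, named after its values were seen, IL11RA (1.01 ± 0.198 to 2.05 ± 0.380 CPM, SD, n = 3). PTGS2, the inducible cyclooxygenase, read 21.5, 21.2 and 21.3 CPM in the sensitive libraries and 1.69, 2.11 and 1.17 CPM in the resistant ones (-3.69 ± 0.16 SE). The prostaglandin E synthase gene PTGES fell from 13.1 to 3.30 CPM (-1.98 ± 0.13 SE), so both of these transcripts were lower. TNFAIP2, a target of NF-kB, went from 670 reads to none, at least 244-fold lower. REL (0.43 ± 0.088 SE) and TNIP1 (0.32 ± 0.045 SE) were the members that rose.

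More genes of antigen presentation were called lower than higher. For MHC class I and peptide loading 12 of 19 were lower and 6 higher (median -0.41), and for class II 7 of 13 lower and 3 higher (median -1.46). HLA genes resemble each other, so reads can be split between them and their single values are uncertain. HLA-B read 191, 199 and 213 CPM in the sensitive libraries and 42.4, 43.8 and 42.7 CPM in the resistant ones (-2.23 ± 0.046 SE), HLA-F 106, 110.2 and 113 CPM in the sensitive libraries and 17.6, 19.1 and 20.9 CPM in the resistant ones (-2.51 ± 0.066 SE) and HLA-C 112, 122 and 119 CPM in the sensitive libraries and 46.9, 47.9 and 49.5 CPM in the resistant ones (-1.29 ± 0.051 SE). The transactivator gene NLRC5 fell from 5.01 to 2.31 CPM (-1.12 ± 0.16 SE), while CANX, the chaperone calnexin, rose from 1316 to 2149 CPM (0.71 ± 0.032 SE). HLA-DRA, of class II, read 1.13, 1.81 and 2.25 CPM in the sensitive libraries and 0.246, 0.315 and 0.233 CPM in the resistant ones (-2.70 ± 0.28 SE) and the invariant chain gene CD74 3.70, 3.26 and 3.68 CPM in the sensitive libraries and 0.737, 1.29 and 0.875 CPM in the resistant ones (-1.88 ± 0.15 SE). IFI30, a thiol reductase of antigen processing, fell from 19.2 to 1.71 CPM (-3.49 ± 0.11 SE). HLA-DPA1 (0.55), HLA-DMA (0.59) and HLA-DMB (0.68) were higher, and the call of HLA-DMB was lost without resistant library 2 or sensitive library 2.

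Interferon response genes were lower for 16 of 28 and higher for 6 (median -0.37). BST2, the membrane protein tetherin that holds enveloped viruses at the cell surface (chr19:17402939-17405648), read 109, 109 and 113 CPM in the sensitive libraries and 0.706, 0.410 and 0.612 CPM in the resistant ones (log2 fold change -7.57 ± 0.11 SE, edgeR adjusted p = 1.27e-41). OAS2, a sensor of double-stranded RNA, fell from 20.1 to 3.07 CPM (-2.71 ± 0.12 SE), the exonuclease gene ISG20 from 36.4 to 8.22 CPM (-2.15 ± 0.074 SE), and IFIH1, which encodes the RNA sensor MDA5, from 8.55 to 2.94 CPM (-1.54 ± 0.15 SE). In contrast, IFIT1, which binds foreign RNA, read 2.17, 1.65 and 1.73 CPM in the sensitive libraries and 7.83, 8.70 and 9.59 CPM in the resistant ones (2.24 ± 0.16 SE), and IFIT3 (0.42), ISG15 (0.40) and IFI44 (0.39) rose less. Among ligands for lymphocytes and natural killer cells, 4 of 17 were higher and 7 lower (median -0.14). PVR, a ligand of TIGIT, fell from 127 to 53.8 CPM (-1.24 ± 0.043 SE), and MICA, a ligand of NKG2D, from 66.9 to 39.4 CPM (-0.76 ± 0.059 SE). CD47, which restrains phagocytes, rose from 63.1 to 125 CPM (0.99 ± 0.046 SE). The others called higher were CD276 (0.11, with overlapping libraries) and, named after their values were seen, CD274, which encodes PD-L1 (2.10 ± 0.711 to 2.90 ± 0.399 CPM, SD, n = 3, with overlapping libraries), and C10orf54, which encodes VISTA (0.0447 ± 0.0514 to 0.297 ± 0.118 CPM, SD, n = 3). The call of CD274 was lost in SKMel28 fitted alone and without resistant library 1 or sensitive library 3 (0.25), and that of CD276 with library size as the only scaling.

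Proteases and their inhibitors held the largest single difference. TFPI2, a secreted Kunitz-type inhibitor of serine proteases (chr7:93885396-93890991), read 95.8, 96.5 and 94.4 CPM in the sensitive libraries and had no read in any resistant library, at least 3142-fold lower. Of 20 genes of the plasminogen system, serpins and TFPI, 6 rose and 9 fell (median -0.10). PLAUR, the receptor that holds urokinase at the cell surface (chr19:43646095-43670547), read 70.4, 66.8 and 72.4 CPM in the sensitive libraries and 2.49, 2.52 and 2.51 CPM in the resistant ones (log2 fold change -4.80 ± 0.075 SE, edgeR adjusted p = 1.35e-40). SERPINB2, plasminogen activator inhibitor 2, read 86.4, 86.1 and 84.3 CPM in the sensitive libraries and 2.95, 3.81 and 2.86 CPM in the resistant ones (-4.74 ± 0.094 SE). Both sets of resistant libraries were uniformly low. Other serpins went the other way. SERPINF1, which encodes the antiangiogenic factor PEDF (chr17:1761959-1777574), read 0.900, 0.941 and 0.880 CPM in the sensitive libraries and 81.7, 90.2 and 88.9 CPM in the resistant ones (log2 fold change 6.58 ± 0.11 SE, edgeR adjusted p = 1.32e-39), and SERPINI1, neuroserpin, rose from 0.787 to 7.03 CPM (3.15 ± 0.24 SE).

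Promoters of 3 members that fell in this family are shown with a match to the AP-1 site, a known binding sequence of FOS and JUN proteins. Whether AP-1 acts on them was not tested. The letters searched were TGANTCA, which read the same on both strands. PLAUR lies at chr19:43670120-43670419 on the minus strand with the match at -186, SERPINB2 at chr18:63887455-63887754 on the plus strand with the match at -102, and TFPI2 at chr7:93890704-93891003 on the minus strand with the match at -87 from the transcript start (RefSeq, GRCh38.p14).
PLAUR: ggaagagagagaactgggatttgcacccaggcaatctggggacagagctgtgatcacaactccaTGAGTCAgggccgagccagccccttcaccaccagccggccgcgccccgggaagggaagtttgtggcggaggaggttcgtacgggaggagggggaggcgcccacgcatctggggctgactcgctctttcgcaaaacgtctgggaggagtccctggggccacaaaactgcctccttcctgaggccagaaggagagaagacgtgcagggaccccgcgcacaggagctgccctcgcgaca
SERPINB2: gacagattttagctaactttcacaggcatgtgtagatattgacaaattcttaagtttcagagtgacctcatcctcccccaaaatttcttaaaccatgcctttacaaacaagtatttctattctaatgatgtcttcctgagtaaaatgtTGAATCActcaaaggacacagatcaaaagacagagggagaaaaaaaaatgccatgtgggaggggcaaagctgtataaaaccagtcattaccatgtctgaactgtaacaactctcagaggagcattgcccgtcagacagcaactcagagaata
TFPI2: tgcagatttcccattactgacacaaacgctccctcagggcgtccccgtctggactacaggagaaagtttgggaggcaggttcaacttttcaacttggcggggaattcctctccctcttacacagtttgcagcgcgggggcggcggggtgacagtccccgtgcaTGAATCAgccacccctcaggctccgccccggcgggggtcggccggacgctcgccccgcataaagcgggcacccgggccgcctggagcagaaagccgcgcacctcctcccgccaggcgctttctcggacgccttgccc

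The site was found in 7 of 16 promoters of this list that were in the table (PLAUR, SERPINB2, SERPINB5, SERPINB8, TFPI2, F3 and ANXA2), in 5.05% of promoters of tested genes and in 7.76% of all promoters. Of genes at least 2-fold lower 8.69% had it, of genes at least 2-fold higher 5.78%, and of genes not called 5.61%. Of the feedback inhibitors of MAPK signalling 1 of 15 promoters held it. Carriers in the plasminogen list did not all move the same way: ANXA2 (0.59 ± 0.031 SE) and F3 (0.25 ± 0.11 SE) were called higher, SERPINB8 was called lower (-1.32 ± 0.077 SE), and SERPINB5 had 1 read over all 6 libraries. The call of F3 was lost in 6 of 13 alternative analyses. These carriers were named after their values were seen. These shares are descriptions, and no binding was measured.

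Of 21 matrix metalloproteinases and inhibitors 11 fell and 5 rose (median -0.71). MMP1, the interstitial collagenase (chr11:102789920-102798160), read 99.98, 94.02 and 103 CPM in the sensitive libraries and 0.584, 0.820 and 1.20 CPM in the resistant ones (log2 fold change -6.82 ± 0.11 SE, edgeR adjusted p = 2.84e-40). MMP3, stromelysin 1, read 8.27, 9.21 and 7.04 CPM in the sensitive libraries and 0, 0.158 and 0 CPM in the resistant ones (-7.23 ± 0.38 SE), and MMP2, gelatinase A, 7.47, 6.89 and 9.55 CPM in the sensitive libraries and 0.184, 0.0630 and 0.204 CPM in the resistant ones (-5.68 ± 0.20 SE). MMP8, the neutrophil collagenase, fell from 119 to 9.07 CPM (-3.72 ± 0.076 SE). The members that rose were inhibitors or membrane-anchored enzymes: TIMP2 (0.32 ± 0.032 SE), TIMP3 (0.37 ± 0.030 SE), RECK (0.76 ± 0.10 SE), MMP15 (0.34 ± 0.063 SE) and, named after its values were seen, MMP17 (200.3 ± 13.5 to 232 ± 16.9 CPM, SD, n = 3, with overlapping libraries). TIMP1, another inhibitor of these enzymes, was called at least 2-fold lower, so the inhibitors did not all rise.

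Adhesion genes were lower for 14 of 27 integrins and cadherins and higher for 7 (median -0.42). ITGA4, the alpha 4 subunit that binds VCAM1 and fibronectin, read 121, 117 and 113 CPM in the sensitive libraries and 0.215, 0.252 and 0.175 CPM in the resistant ones (log2 fold change -9.08 ± 0.12 SE, edgeR adjusted p = 4.66e-43). ITGB3, the beta 3 subunit of the vitronectin receptor, read 589.7, 569 and 584 CPM in the sensitive libraries and 83.4, 75.5 and 70.5 CPM in the resistant ones (-2.92 ± 0.053 SE), and ITGA5, a fibronectin receptor subunit, 53.7, 47.6 and 53.5 CPM in the sensitive libraries and 5.62, 4.67 and 5.54 CPM in the resistant ones (-3.29 ± 0.068 SE). In each of these the resistant libraries lay far below. ITGA7, a laminin receptor subunit, rose from 61.99 to 127 CPM (1.03 ± 0.053 SE), its partner ITGB1 from 329 to 538 CPM (0.71 ± 0.035 SE) and the collagen receptor subunit ITGA2 from 34.9 to 63.4 CPM (0.86 ± 0.057 SE). N-cadherin, encoded by CDH2, fell from 69.6 to 36.9 CPM (-0.92 ± 0.048 SE). Collagen chains split, with 11 of 25 higher and 8 lower (median -0.20). COL5A3 read 9.94, 12.4 and 10.9 CPM in the sensitive libraries and 41.2, 33.4 and 29.6 CPM in the resistant ones (1.65 ± 0.11 SE) and COL13A1, a transmembrane collagen, 8.37, 9.51 and 7.56 CPM in the sensitive libraries and 0.369, 0.378 and 0.350 CPM in the resistant ones (-4.52 ± 0.16 SE). The chains that form type I collagen moved apart, with COL1A1 at 2.08 and 3.63 CPM (0.80 ± 0.20 SE) and COL1A2 at 1.33 and 0.0817 CPM (-3.97 ± 0.58 SE). So did those of type IV collagen, COL4A1 (1.73 ± 0.14 SE) and COL4A2 (-0.46 ± 0.069 SE). COL1A1 and COL1A2 also stand among the fibroblast markers, of which 3 of 8 tested rose and 3 fell.

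**Figure D3:**
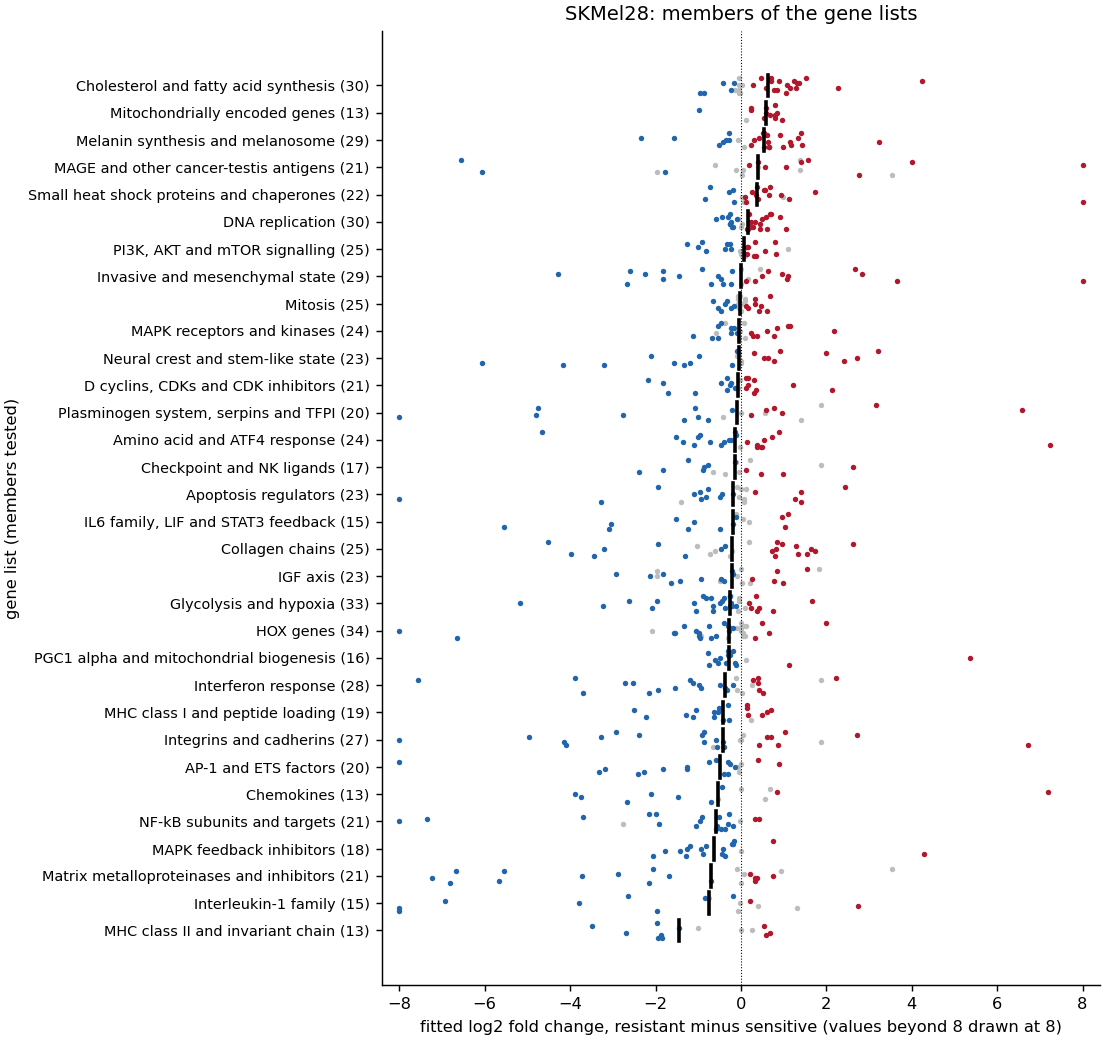
Fitted log2 fold changes (resistant minus sensitive, drawn at 8 where beyond) of the tested members of 32 gene lists, with the number tested in brackets, red for called higher, blue for called lower, grey for not called and a black bar at each list's median. Cholesterol and fatty acid synthesis has the highest median (0.64) and MHC class II the lowest (-1.46).

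Of 21 D cyclins, cyclin-dependent kinases and their inhibitors, 9 were higher and 10 lower (median -0.07), 2 and 4 of them at least 2-fold. Of 30 DNA replication genes 17 rose and 10 fell (median 0.18), with 1 rise of at least 2-fold, that of the helicase subunit gene MCM2 (from 85.7 to 179 CPM, 1.06 ± 0.040 SE). TK1, thymidine kinase, fell from 139 to 93.3 CPM (-0.58 ± 0.042 SE). Of 25 mitosis genes 8 rose and 7 fell (median -0.03), with no change of 2-fold. The kinesin gene KIF11 rose (0.69) and CDC20, an activator of the anaphase-promoting complex, fell (-0.66). Among inhibitors of cyclin-dependent kinases, CDKN2A read 181, 196 and 201 CPM in the sensitive libraries and 48.8, 55.4 and 58.6 CPM in the resistant ones (-1.83 ± 0.053 SE), CDKN2B 31.2, 27.2 and 34.1 CPM in the sensitive libraries and 5.53, 7.09 and 7.72 CPM in the resistant ones (-2.18 ± 0.12 SE) and CDKN2D 22.8 and 10.8 CPM on average (-1.08 ± 0.077 SE). CDKN1C, which encodes p57, rose from 2.89 to 6.70 CPM (1.21 ± 0.15 SE). Reads of CDKN2A count p16 and ARF together.

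Of 23 regulators of apoptosis 11 fell and 5 rose (median -0.18). TNFRSF10B, the death receptor DR5 for TRAIL (chr8:23020133-23069179), read 76.3, 69.8 and 69.2 CPM in the sensitive libraries and 0.276, 0.252 and 0.146 CPM in the resistant ones (log2 fold change -8.30 ± 0.11 SE, edgeR adjusted p = 4.14e-43). FAS, another death receptor, read 1.83, 1.75 and 2.15 CPM in the sensitive libraries and 10.7, 10.2 and 10.1 CPM in the resistant ones (2.43 ± 0.12 SE), so these receptors separated in opposite directions. BID, which links death receptors to mitochondria, fell from 45.8 to 11.9 CPM (-1.94 ± 0.068 SE), and the BH3-only genes PMAIP1 (-1.11 ± 0.073 SE) and BCL2L11, which encodes BIM (-0.93 ± 0.080 SE), fell too. Other BH3-only genes rose, BMF from 4.79 to 12.8 CPM (1.42 ± 0.13 SE) and HRK from 2.12 to 5.11 CPM (1.26 ± 0.22 SE). The survival gene BCL2 read 13.7, 14.5 and 13.6 CPM in the sensitive libraries and 39.2, 35.8 and 35.2 CPM in the resistant ones (1.40 ± 0.078 SE), and BCL2L2 was the remaining member called higher (0.32 ± 0.051 SE, named after its values were seen). BCL2A1, a survival gene regulated by MITF, read 59.2, 57.8 and 58.7 CPM in the sensitive libraries and 49.5, 51.7 and 54.2 CPM in the resistant ones (-0.18 ± 0.068 SE). Its call was lost without resistant library 1 (-0.14) or 2 (-0.17), or sensitive library 1 (-0.16).

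Lipid synthesis was higher in resistant cells. Of 30 genes of cholesterol and fatty acid synthesis 18 rose, 10 of them at least 2-fold, and 5 fell (median 0.64). SCD, the stearoyl-CoA desaturase that makes monounsaturated fatty acids (chr10:100347124-100364834), read 356, 342 and 351 CPM in the sensitive libraries and 1753, 1671 and 1656 CPM in the resistant ones (log2 fold change 2.28 ± 0.033 SE, edgeR adjusted p = 8.49e-42). FADS2, a desaturase of polyunsaturated fatty acids, rose from 5.36 to 15.3 CPM (1.52 ± 0.093 SE), and the elongase gene ELOVL6 from 16.4 to 42.1 CPM (1.36 ± 0.066 SE). Those that fell included the acetyl-CoA synthetase gene ACSS2 (-0.87 ± 0.070 SE), the mevalonate pathway genes PMVK (-0.96 ± 0.064 SE) and MVD (-0.23 ± 0.079 SE) and, named after its values were seen, FDFT1 (-0.17 ± 0.039 SE). The call of MVD was lost without resistant library 1 or 3. A sterol regulatory element, searched as TCACNCCAC on both strands, was in 1 of 23 promoters of this list (SREBF2), in 1.09% of promoters of tested genes and in 2.10% of those at least 2-fold higher.

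Glycolysis and hypoxia genes fell for 22 of 33 and rose for 7 (median -0.26). PFKFB4, which sets the level of fructose 2,6-bisphosphate, read 106, 103 and 106 CPM in the sensitive libraries and 10.9, 11.2 and 11.3 CPM in the resistant ones (-3.24 ± 0.063 SE), and SLC16A3, the lactate exporter MCT4, 38.5, 38.98 and 46.7 CPM in the sensitive libraries and 9.15, 9.99 and 10.1 CPM in the resistant ones (-2.08 ± 0.077 SE). HK2, hexokinase 2, fell from 414 to 194 CPM (-1.10 ± 0.036 SE), and VEGFA, the vascular growth factor, from 91.9 to 23.4 CPM (-1.97 ± 0.052 SE). EPAS1, which encodes HIF-2 alpha, rose from 49.03 to 156 CPM (1.67 ± 0.060 SE). Of 24 genes of amino acid supply and the ATF4 response 9 rose and 13 fell (median -0.13). PSAT1, an enzyme of serine synthesis, fell from 275 to 95.1 CPM (-1.53 ± 0.038 SE), and SLC7A11, the cystine transporter, rose from 152 to 282 CPM (0.90 ± 0.043 SE). SLC38A8, an amino acid transporter, read 0.133, 0.0336 and 0.0652 CPM in the sensitive libraries and 11.7, 11.7 and 13.6 CPM in the resistant ones (7.25 ± 0.30 SE). PPARGC1A, the coactivator PGC1 alpha that drives mitochondrial biogenesis, read 8.27, 7.43 and 8.57 CPM in the sensitive libraries and 19.6, 16.3 and 16.7 CPM in the resistant ones (1.11 ± 0.12 SE). In its list 13 of 16 genes fell and 2 rose (median -0.29), the other being ESRRG, named after its values were seen, with no read in sensitive libraries and 15 reads over the resistant ones (a mean of 0.151 CPM). With SKMel28 fitted alone ESRRG held too few reads to be tested, and 1 gene of the list was higher. CYCS, cytochrome c, fell from 564 to 331 CPM (-0.77 ± 0.040 SE) and TFB2M, a mitochondrial transcription factor, from 44.9 to 26.7 CPM (-0.75 ± 0.052 SE). Of the 13 mitochondrially encoded genes 11 rose and 1 fell (median 0.60), from MT-ATP6 (0.22) to MT-ND1 (0.95). MT-ATP8, which overlaps MT-ATP6 on the same strand, fell (-0.97 ± 0.11 SE), and reads within the overlap cannot be told apart by gene.

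Chaperone genes rose for 14 of 22 and fell for 5 (median 0.36). CRYAB, a small heat shock protein of lens and muscle (chr11:111908565-111923722), read 0.467, 0.235 and 0.195 CPM in the sensitive libraries and 171, 169 and 179 CPM in the resistant ones (log2 fold change 9.16 ± 0.12 SE, edgeR adjusted p = 3.51e-42), with 27 reads over the sensitive libraries and 17054 over the resistant ones. DNAJB4, a cochaperone of HSP70, rose from 28.5 to 94.9 CPM (1.74 ± 0.059 SE), HSPB8 from 39.8 to 75.9 CPM (0.93 ± 0.060 SE) and HSPD1, the mitochondrial chaperonin, from 1245 to 2009 CPM (0.69 ± 0.029 SE). HSPB1 fell from 90.1 to 50.7 CPM (-0.83 ± 0.081 SE), HSPA2 (-0.71 ± 0.054 SE) and, with similar sequences that make their counts uncertain, HSPA1A (-0.29 ± 0.051 SE) and HSPA1B (-0.19 ± 0.059 SE, with overlapping libraries) fell as well. HSPA5 was the other called lower (-0.17 ± 0.031 SE, named after its values were seen).

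The largest rises among well-read genes were of mixed function. JAKMIP2, a protein that binds Janus kinases and microtubules (chr5:147585439-147782848), read 0, 0.0336 and 0.130 CPM in the sensitive libraries and 33.7, 36.8 and 32.6 CPM in the resistant ones (log2 fold change 9.18 ± 0.25 SE, edgeR adjusted p = 3.01e-30). ANO5, a membrane protein of the anoctamin family, rose from 0.166 to 19.2 CPM (6.82 ± 0.23 SE), ELFN1, a synaptic adhesion protein, from 0.155 to 17.3 CPM (6.77 ± 0.24 SE), and MAL2, a protein of vesicle transport, from 0.268 to 27.6 CPM (6.68 ± 0.20 SE). LRRC39 (6.13 ± 0.28 SE), the actin-binding gene TAGLN (5.12 ± 0.24 SE), the olfactory receptor gene OR2C3 (4.82 ± 0.16 SE), ILDR2 (4.78 ± 0.20 SE) and the heparan sulphate sulphotransferase gene HS6ST2 (4.77 ± 0.17 SE) completed the 12 largest rises together with CRYAB, SLC38A8 and SERPINF1. Besides TYRP1, SPARC, SCD and MET, the genes that gained most CPM included FTH1, the ferritin heavy chain (from 1619 to 3346 CPM, uncertain because of its many pseudogenes), and HTR2B, a serotonin receptor (from 59.3 to 525 CPM, 3.15 ± 0.048 SE). They also included CD68, a lysosomal membrane protein (from 211 to 761 CPM), and SLC7A8, a transporter of large neutral amino acids (from 229 to 673 CPM). FAM210B (1.52) and WDFY1 (1.48) made up the rest.

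The largest falls ended at or near 0 reads. PLA2G16, a phospholipase, went from 3465 reads over the sensitive libraries to none, at least 1258-fold lower, and RGS1, which shortens G protein signals, from 2777 to none, at least 1009-fold lower. CDCP1, a membrane substrate of SRC kinases, lost all of its 1526 reads, at least 554-fold lower. SPESP1 (at least 394-fold lower) and SPRR2D (at least 355-fold lower), the latter with close relatives that make its count uncertain, also had none. FAM129A kept 3 reads of a level 1369-fold lower (95% counting interval 469 to 6639.9), and KYNU, which encodes kynureninase of tryptophan breakdown, 3 reads, 1039.5-fold lower (95% counting interval 356 to 5041). TINAGL1, a matrix protein, was 727-fold lower (95% counting interval 249 to 3527). By CPM lost, CCND1 and TNC were followed by the prion protein gene PRNP (from 2003 to 714 CPM, -1.49 ± 0.030 SE) and MT2A, a metallothionein (from 1171 to 132 CPM, -3.15 ± 0.040 SE). ALDH1A3, the neuropeptide precursor gene VGF (from 1459 to 478 CPM), the phosphate transporter gene SLC20A1 (from 829 to 149 CPM) and the lipase gene ABHD2 (from 817 to 162 CPM) came next. RPL37 (from 923 to 349.6 CPM) and RPL35 (from 1039 to 491 CPM) closed this list. Ribosomal protein genes have many pseudogenes, and the share of reads aligned to more than 1 place was also lower in resistant libraries (2.09% to 2.44% against 4.004% to 4.47%), whose part in these values was not tested.

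Some genes were read in every library of 1 group and hardly at all in the other. With at least 1 CPM in each sensitive library and at most 3 reads over the resistant ones, 59 genes (0.38% of those tested) were off in resistant cells, 28 of them without a read. The reverse held for 16 genes (0.103%), 6 of them without a read in sensitive cells. At 5 CPM or more in each library and no read in the other group, the counts were 10 off and 0 on. Those off were TFPI2, PLA2G16, RGS1, CDCP1, SPESP1, SPRR2D, HOXB13, FLT1, TNFAIP2 and SLC2A8. FLT1, a VEGF receptor, went from 681 reads to 0, and PPARG, the lipid-sensing nuclear receptor, from 246 reads to 0. SLFN11, known for its part in the response to DNA-damaging drugs, went from 285 reads to 0. Among genes switched on, the neurotrophin gene NTF3 went from 0 to 408 reads, MAPK10, which encodes the kinase JNK3, from 0 to 160, and PENK, the enkephalin precursor, from 2 to 287. FLT1, PPARG, SLFN11, SLC2A8, NTF3, MAPK10 and PENK were named after their values were seen.

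Homeobox genes of the HOX clusters set positional identity in development. Of 34 HOX genes 17 fell and 4 rose (median -0.29). HOXB13 had 780 reads over the sensitive libraries and none over the resistant ones, at least 284-fold lower. HOXB2 (-1.57 ± 0.065 SE) and HOXB9 (-1.55 ± 0.093 SE) fell, and HOXD1 (from 4.08 to 16.2 CPM, 1.99 ± 0.16 SE), HOXD8 (0.66 ± 0.089 SE), HOXC6 (0.49 ± 0.095 SE) and HOXB7 (0.33 ± 0.066 SE) rose. Of 21 cancer-testis antigens, normally limited to germ cells, 9 rose and 3 fell (median 0.40). MAGEA1 read 4.54, 5.04 and 4.37 CPM in the sensitive libraries and 33.8, 31.4 and 29.9 CPM in the resistant ones (2.77 ± 0.11 SE), MAGEA4 rose from 172 to 354 CPM (1.04 ± 0.033 SE) and MAGEA10 from 4.75 to 12.6 CPM (1.41 ± 0.10 SE). Those that fell, named after their values were seen, were MAGEB2, with 206 reads over the sensitive libraries and 3 over the resistant ones, SPANXB1, with 118 and 1, and MAGEA2 (0.432 ± 0.0637 and 0.125 ± 0.139 CPM, SD, n = 3), whose call was lost without resistant library 1 or 3. MAGE genes resemble each other, so their single values are uncertain.

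Differences also followed position in the genome. Taking genes that averaged 2 CPM or more, the lowest arm median was that of Xp (-0.74 over 148 genes, with 127 called lower and 11 higher), followed by 7p (-0.40), 5p (-0.37), 9q (-0.35), 21q (-0.34) and 16q (-0.31). The highest was that of 10p (0.50 over 95 genes, 73 higher and 14 lower), followed by 8q (0.40), 10q (0.36), 5q (0.34), 6q (0.30) and 3q (0.28). Over all 11203 genes of at least 2 CPM with a position outside chromosome Y, the median was 0.01. Of these 39.8% were called higher and 38.5% lower. The median of 5p was -0.13 over genes of at least 10 CPM. DNA copy number was not measured, and its part in these medians was not tested.

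**Figure D4:**
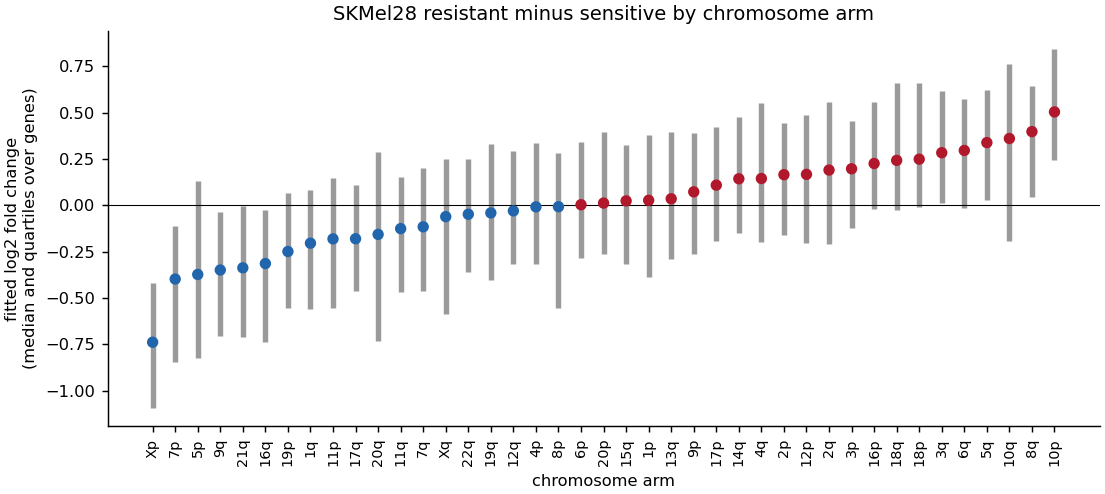
Median fitted log2 fold change (dots, red above 0 and blue below) with the lower and upper quartiles (bars) over genes of at least 2 CPM on each chromosome arm with 20 or more such genes, in order of the median. Xp lies lowest at -0.74 and 10p highest at 0.50.

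Among genes averaging at least 2 CPM, with those below passed over, neighbours that all changed at least 2-fold the same way formed 12 runs of 4 or more. The longest held 13 genes on chromosome 5 (chr5:141121799-141320821, GRCh38), all higher, with a median log2 fold change of 2.62. They were 12 genes of the protocadherin beta cluster, which encode cell surface proteins of neuronal recognition, and TAF7, a subunit of the general transcription factor TFIID. PCDHB5 read 5.002, 5.68 and 5.70 CPM in the sensitive libraries and 35.8, 32.3 and 33.00 CPM in the resistant ones (log2 fold change 2.62 ± 0.090 SE, edgeR adjusted p = 1.06e-27), PCDHB13 0.934, 1.68 and 2.12 CPM in the sensitive libraries and 15.6, 14.97 and 15.2 CPM in the resistant ones (3.27 ± 0.16 SE) and PCDHB16 5.37, 3.33 and 3.39 CPM in the sensitive libraries and 17.4, 18.9 and 16.8 CPM in the resistant ones (2.14 ± 0.12 SE). TAF7 read 69.8, 66.00 and 65.8 CPM in the sensitive libraries and 141, 143 and 147 CPM in the resistant ones (1.10 ± 0.040 SE). The next runs, both lower, lay on chromosome 20, with 7 genes at chr20:44885676-45376798 and 5 at chr20:45791937-45879122. The first held the kinase gene STK4 (from 105 to 44.4 CPM, -1.24 ± 0.047 SE), the 14-3-3 gene YWHAB (-1.06 ± 0.034 SE), the syndecan gene SDC4 (-2.09 ± 0.047 SE) and the elastase inhibitor gene PI3 (-6.44 ± 0.36 SE). The second held the ubiquitin-conjugating enzyme gene UBE2C (from 107 to 44.2 CPM, -1.28 ± 0.046 SE) and DNTTIP1 (-1.69 ± 0.063 SE).

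Protocadherin genes of the clusters on either side were counted after these values were seen. Of 17 beta genes tested all 17 were higher, 16 at least 2-fold (median 2.58). Of 15 alpha genes 7 were higher and none lower (median 0.86), and of 19 gamma genes 15 were higher and 1 lower (median 1.69). Reads were few in both. No alpha gene averaged above 1.47 CPM in either group, and PCDHA9 and PCDHA10 had no read. Gamma genes called higher averaged at most 0.666 CPM in sensitive and 3.48 CPM in resistant libraries. The exceptions at the end of the gamma cluster were PCDHGC3, which read 31.4, 30.2 and 37.7 CPM in the sensitive libraries and 26.4, 22.3 and 22.4 CPM in the resistant ones (-0.48 ± 0.071 SE), and PCDHGC5, at 0.321 and 0.306 CPM and not called (edgeR adjusted p = 0.929). PCDHGB5 read 11.4, 10.5 and 9.58 CPM and 9.71, 11.1 and 7.87 CPM, which overlapped and was not called. PCDHGC3 and PCDHGB5 were the gamma genes with the most reads, and neither was higher. Protocadherins of a cluster share sequence, and alpha and gamma genes share their last exons, so reads can be assigned to a neighbour and single values are uncertain. Calls of PCDHA2, PCDHA11, PCDHA12, PCDHB17P, PCDHGA4, PCDHGA9, PCDHGB3 and PCDHGB6 were lost on leaving out 1 library or more.

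**Figure D5:**
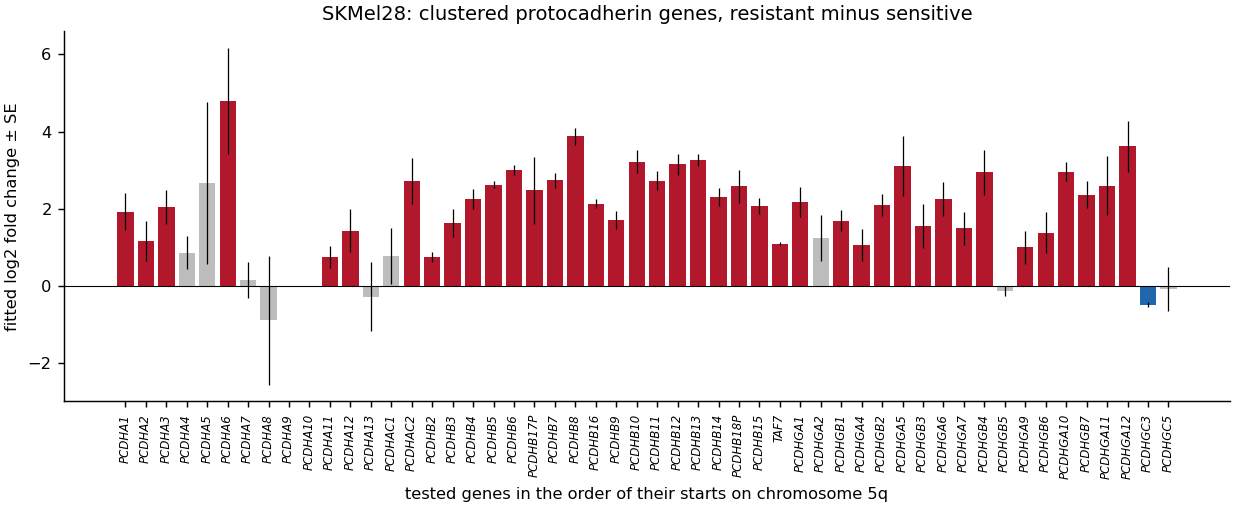
Fitted log2 fold change (resistant minus sensitive) with standard error for tested protocadherin genes and TAF7 in the order of their starts on chromosome 5q, red for called higher, blue for called lower and grey for not called. Bars rise above 0 across the beta cluster in the middle and fall back at PCDHGC3 and PCDHGC5 on the right, and genes without reads in both groups have no bar.

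The resistant minus sensitive difference of SKMel28 was set against that of A375 in the same model, where the contrast between lines was called for 63.8% of genes and 20.1% were called in both lines in opposite directions. Of 40 genes of the pathways above 33 differed between lines. MET rose more in SKMel28 (2.18 ± 0.039 SE) than in A375 (0.32 ± 0.037 SE), a difference of 1.86 ± 0.053 SE (edgeR adjusted p = 1.69e-30). The neural crest factor gene SOX10 fell slightly in SKMel28 (-0.34 ± 0.035 SE) and strongly in A375 (-11.18 ± 0.091 SE). SOX9, which often opposes SOX10, fell in SKMel28 (-1.58 ± 0.22 SE) and rose in A375 (2.80 ± 0.052 SE), a difference of -4.38 ± 0.23 SE (edgeR adjusted p = 5.14e-21). TFPI2, without reads in resistant SKMel28, rose in A375 (3.16 ± 0.055 SE). NGFR fell in both lines, and more in SKMel28 (difference -3.35 ± 0.065 SE, edgeR adjusted p = 2.77e-36).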

How the data were processed

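Poly(A)-enriched RNA was sequenced from 12 cell line libraries, of which 6 are SKMel28. The authors deposited whole-number read counts per gene, unfiltered and not normalised. HISAT2, StringTie and GRCh38.p12 are named per the submitters' processing notes, whereas the names of the deposited tables point to STAR, hg38 and unstranded counting, so the aligner is not settled here.

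The 5 summary lines of each table, such as unassigned reads (15.1% to 15.6% in resistant and 17.1% to 19.0% in sensitive libraries), were left out. Counts were filtered on low values and scaled by TMM, and 1 edgeR quasi-likelihood model over the 4 groups (8 residual degrees of freedom) gave the contrasts, adjusted by Benjamini-Hochberg (R 4.3.3, edgeR 4.0.16, limma 3.58.1). DESeq2 1.42.0, other scaling and filters, a replicate block and the omission of each library were alternatives. The procedure was tested on simulated data.

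The members and the 38 gene lists, of which 6 hold cell type markers, were chosen with earlier results of these data known. Named genes are the 12 largest rises and falls of at least 10 CPM without overlap, the 10 largest gains and losses in CPM at 2-fold or more, 40 core genes, up to 4 list members of at least 5 CPM in each direction (all members where at most 14 were tested) and the 3 longest runs. Positions are from GENCODE 29 on GRCh38, found for 14513 tested genes (93.6%). Promoters are RefSeq GRCh38.p14, matched by symbol for 11303. Some genes are not reported here.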

Additional observations from a re-analysis of the deposited data

Results flagged for a closer look

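Of 40 core genes, 17 were called in both lines with opposite signs, as were 20.1% of all genes tested. The core genes were chosen with earlier results known. For 13 of the 17 the interaction contrast, SKMel28 minus A375, was called in the edgeR quasi-likelihood model and the gene averaged 10 CPM or more in 1 SKMel28 group and held over 3 reads in each of the 4 groups of libraries. The other 4 also had a called contrast: EGFR (-1.07 ± 0.16 SE) and SOX9 (-4.38 ± 0.23 SE) lay below that level, and TFPI2 and CRYAB had a group at or under 3 reads, so that the size of their difference is no bound. The A375 values rest on 3 resistant and 3 sensitive libraries.

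IL1B had the largest difference between lines among these 13 (-10.90 ± 0.17 SE), falling in SKMel28 and rising in A375 (1.10 ± 0.064 SE). LIF differed by -5.98 ± 0.094 SE, with a rise of 0.44 ± 0.046 SE in A375, and CXCL8 by -3.16 ± 0.075 SE, with a rise of 1.06 ± 0.059 SE. FOSL1 differed by -2.41 ± 0.056 SE and CDKN2A by -2.41 ± 0.13 SE, both higher in resistant A375 (0.59 for each). CCND1 differed by -1.90 ± 0.045 SE and DUSP6 by -1.60 ± 0.053 SE, with A375 at 0.19 and 0.77. MAP2K1 differed by -0.78 ± 0.061 SE, with A375 at 0.30. BCL2A1 differed by -1.46 ± 0.43 SE and AXL by -0.47 ± 0.078 SE, and the SKMel28 calls of both were lost on leaving out 1 library.

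The signs were the reverse for IGF1R, higher in SKMel28 and lower in A375 (-0.82 ± 0.043 SE), with a difference of 1.58 ± 0.058 SE. MITF differed by 1.02 ± 0.057 SE, with A375 at -0.36, and MAPK3, which encodes ERK1, by 0.49 ± 0.086 SE, with A375 at -0.27.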

How the results depend on the processing

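With 13 alternatives, the 435 named genes gave 5607 values. None was reversed, 66 lost their call and 11 gained one. Leaving out 1 library at a time gave 5081 to 5244 genes higher and 5273 to 5348 lower, of which 1311 to 1395 and 1808 to 1859 changed at least 2-fold. DESeq2 called 5309 higher and 5471 lower, library size alone 5019 and 5856. The replicate numbers did not pair the libraries (correlations of same-numbered deviations 0.0824, -0.0181 and 0.0538 over 11658 genes), and the replicate block called 5327 higher and 5569 lower, with 10781 calls shared.

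With SKMel28 fitted alone, members called higher were 1 of the MAPK feedback inhibitors, 1 of the PGC1 alpha list, 2 of the checkpoint and NK ligands and 1 keratinocyte marker, and 1 leukocyte marker was called lower. Without resistant replicate 3, 1 MAPK feedback inhibitor was called higher. With library size alone 11 mitosis genes were lower, and with library size alone or the replicate block 1 Schwann cell marker was lower. Requiring 5 CPM and no read left 10 genes switched off and 0 switched on, which follows from the stricter rule. For the other moved counts the cause was not tested.

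Depth limits statements on genes near 0: 3 reads over a group stand for 0.0304 CPM in resistant and 0.0332 CPM in sensitive libraries. Calls of TEK, KRT14, COL14A1, CXCL16, ERBB3, F3 and GSDMD were lost in at least 1 alternative, and those of CCL2, MAP2K2, MT-ND3, NF1 and PCDHGA2, among others, gained in at least 1.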

Other observations

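Genes of the imprinted region on 15q11-q13, which are expressed mainly from 1 parental copy, were grouped after their values were seen. All 7 genes of this group were lower in resistant cells, against 35.8% of all genes tested. They were picked with their values known, so they do not describe the whole region. The long RNA gene IPW read 12.8, 12.4 and 13.1 CPM in the sensitive libraries and 3 reads over the resistant ones, 419-fold lower (95% counting interval 143 to 2033). PWAR5 had 393 reads and then none (at least 143-fold lower), as did PWARSN (at least 72.3-fold lower), MAGEL2 (at least 40.2-fold lower) and SNURF (at least 9.79-fold lower). NDN, which encodes necdin, read 43.99, 46.8 and 44.6 CPM in the sensitive libraries and 23.5, 22.4 and 23.6 CPM in the resistant ones (-0.96 ± 0.067 SE). UBE3A, a ubiquitin ligase gene that is imprinted in neurons, read 115, 112 and 110.2 CPM in the sensitive libraries and 82.3, 76.8 and 81.1 CPM in the resistant ones (-0.49 ± 0.041 SE), so the neighbours kept part of their level. DNA copy number and methylation were not measured.

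Components of the inflammasome, the complex that activates caspase-1 and interleukin-1 beta, were grouped after their values were seen as well. Of 11 tested, 6 were lower and 3 higher, against 35.8% and 34.2% of all genes tested. The adaptor gene PYCARD read 28.9, 31.96 and 32.1 CPM in the sensitive libraries and 1.78, 1.64 and 1.78 CPM in the resistant ones (-4.16 ± 0.13 SE), and CASP1 27.3, 28.4 and 27.3 CPM in the sensitive libraries and 1.84, 2.11 and 2.01 CPM in the resistant ones (-3.80 ± 0.14 SE). CASP4 fell from 30.4 to 16.1 CPM (-0.92 ± 0.068 SE). The sensor gene NLRP2 had 861 reads over the sensitive libraries and 1 over the resistant ones, NLRP3 had 150 and 1, and NLRP10 109 and 2. Other sensors were higher: NLRP1 read 5.64, 5.75 and 3.58 CPM in the sensitive libraries and 28.7, 31.9 and 30.5 CPM in the resistant ones (2.61 ± 0.11 SE), and AIM2, which binds DNA, 0.0667, 0.0672 and 0 CPM in the sensitive libraries and 1.97, 1.89 and 1.22 CPM in the resistant ones (5.14 ± 0.58 SE). GSDMD, the pore-forming gasdermin D, was higher by 0.11 ± 0.051 SE (edgeR adjusted p = 0.0497), a call lost in at least 1 alternative.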
